A study of Mus musculus with 6 samples.

Results

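The ADAMTS proteases are secreted zinc metalloproteinases that cut proteoglycans and other proteins of the extracellular matrix. The 10 ADAMTS genes described here, Adamts1, Adamts2, Adamts4, Adamts5, Adamts6, Adamts7, Adamts9, Adamts10, Adamts12 and Adamts15, were taken by gene name from the 55401 genes of the deposited table, and each name matched 1 row. The RNA-seq libraries, made from polyadenylated RNA, came from chondrocytes, the cells of cartilage, which were taken from mice and differentiated in culture. There were 3 Nf2-knockout and 3 control libraries. The controls carry floxed Nf2 (Nf2 f/f) and the knockouts its deletion. Nf2 encodes merlin, an upstream regulator of the Hippo kinases, and the title of the series sets it in parathyroid hormone receptor signalling and skeletal integrity. The sources used here do not give how Nf2 was deleted, the strain and age of the mice, or whether replicates came from separate animals. The p-values therefore speak of the variation from library to library alone, and this may be technical. Each library name holds the tag D7, which the labels do not explain. The treatment label of the knockouts names TCF21 overexpression, yet Tcf21 had 0, 2 and 0 counts in these libraries and 0 in each control.

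ADAMTS enzymes are made as inactive precursors, are activated when furin-type convertases remove a prodomain, and bind the matrix through thrombospondin-type repeats. In cartilage the aggrecanases, above all ADAMTS4 and ADAMTS5, cleave aggrecan, the proteoglycan that lets the tissue resist compression. ADAMTS1, ADAMTS9 and ADAMTS15 also cut proteoglycans such as versican, ADAMTS2 trims the amino-terminal propeptide from fibrillar procollagens, ADAMTS7 and ADAMTS12 cleave cartilage oligomeric matrix protein (COMP), and ADAMTS6 and ADAMTS10 are linked to fibrillin microfibrils. TIMP3 is their main tissue inhibitor, and LRP1 is a receptor that clears aggrecanases from the matrix.

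What the 10 genes have in common is the catalytic site, in which 3 histidines hold the zinc ion. In the longest coding transcript of each gene in GENCODE M21 (build GRCm38), a site of 36 coding bases was found once in 10 of 10 genes. It is shown for the 5 genes whose RNA changed and for Adamts1, the most abundant member, 5′ to 3′ on the gene's strand, with the 3 histidine codons in capitals.
Adamts4: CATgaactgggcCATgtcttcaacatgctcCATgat
Adamts15: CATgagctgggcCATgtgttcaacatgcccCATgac
Adamts9: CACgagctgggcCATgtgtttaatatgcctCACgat
Adamts1: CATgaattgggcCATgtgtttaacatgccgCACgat
Adamts5: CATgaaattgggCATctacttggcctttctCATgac
Adamts7: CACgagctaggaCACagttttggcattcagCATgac
Adamts4 and Adamts15 were the closest of the 45 pairs, with 32 of 36 bases equal, and Adamts1 and Adamts9 shared 31. Adamts5 stood apart, with 21 bases equal to Adamts4 and at most 24 equal to any other member (Adamts10). An intron interrupted the site in 10 of 10 genes, after base 10 in Adamts1, Adamts4, Adamts5 and Adamts15 and after base 17 in the other 6. The introns ran from 90 to 14003 bases. With its intron, the site of Adamts4 lies at chr1:171253210-171253918 on the plus strand, that of Adamts15 at chr9:30911252-30911690, that of Adamts9 at chr6:92905282-92908493, that of Adamts1 at chr16:85799188-85799545 and that of Adamts5 at chr16:85878012-85887826, these 4 on the minus strand. The site of Adamts7 lies at chr9:90179456-90180643 on the plus strand.

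Library totals ran from 50906043 to 63748798 counts, and 10 of the 10 genes passed the filter on low counts. Nf2 stood at 87.9, 100.6 and 97.4 CPM (the counts of a gene relative to the library total, scaled between libraries by TMM factors) in the knockouts and at 125.6, 132.7 and 122.3 CPM in the controls, so its transcripts were lower but remained (log2 fold change −0.41, SE 0.0866, adjusted p = 0.0305). It did not pass in any of the 6 fits that left out 1 library (adjusted p from 0.0518 to 0.123). The 11 chondrocyte markers examined were each detected, with a summed level of 998.4 to 1862 CPM in the knockouts and 806.6 to 1216 CPM in the controls. The highest were Col2a1 (means of 581 CPM in the knockouts and 231 in the controls), Comp (448 and 377) and Col11a1 (372 and 272). Col2a1 passed as higher and 0 passed as lower, with a median log2 fold change of 0.02. Acan, Sox9, Hapln1, Snorc and Cnmd had log2 fold changes below 0 and the other markers above 0. Fibroblast collagens were abundant beside them, with Col1a1 at 2945 ± 275 and 2932 ± 531 CPM (SD, n = 3 in each group, as for each mean ± SD that follows).

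Levels of different genes were compared in FPKM, which is scaled by gene length. In control libraries Adamts1 was highest, at 71.8 ± 2.15 FPKM, followed by Adamts5 at 20.1 ± 0.686, Adamts2 at 9.38 ± 0.735, Adamts4 at 7.34 ± 1.15 and Adamts15 at 7.29 ± 1.16 FPKM. Adamts4 and Adamts15 overlapped across libraries, whereas each of the 3 genes above them was separated from its neighbours. Adamts9 (4.23 ± 0.484 FPKM), Adamts10 (2.65 ± 0.365) and Adamts12 (1.14 ± 0.226) came next, and Adamts12 overlapped with Adamts7 (0.948 ± 0.156). Adamts6 was lowest, at 0.161 ± 0.0315 FPKM. In the knockouts Adamts1 (87.8 ± 6.77 FPKM), Adamts5 (36.2 ± 1.89) and Adamts2 (8.15 ± 0.618) kept the first places, and Adamts10 (4.16 ± 0.519) came next. Adamts4 (2.22 ± 0.503), Adamts9 (2.15 ± 0.349) and Adamts15 (2.14 ± 0.393) then lay at one level and overlapped. Adamts12 (1.23 ± 0.834) overlapped with Adamts15, and Adamts7 (0.538 ± 0.096) and Adamts6 (0.103 ± 0.0587) were lowest.

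**Figure D1:**
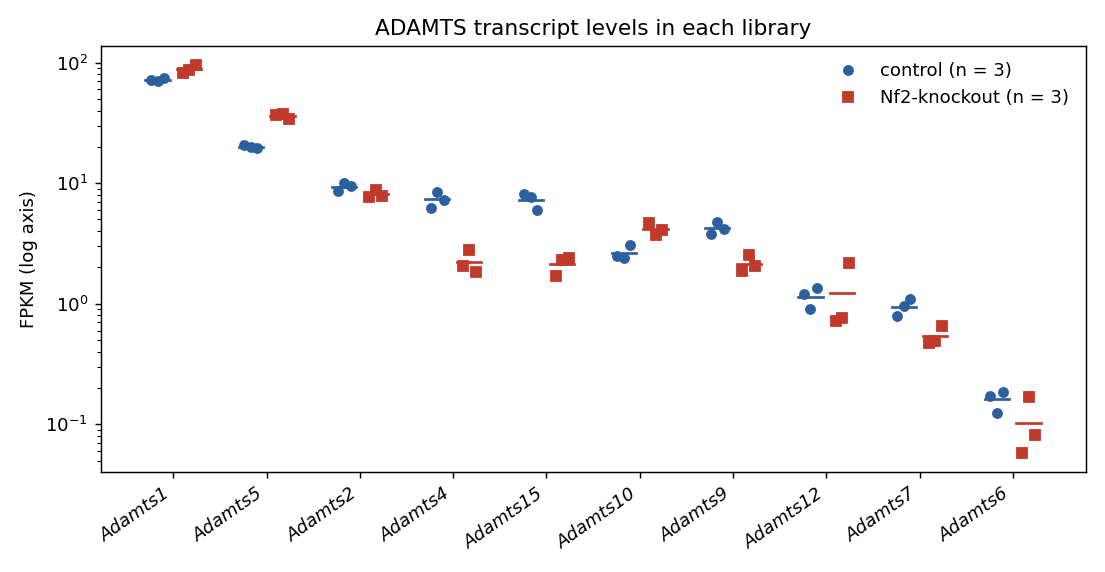
FPKM of the 10 ADAMTS genes in each of 6 libraries on a log axis, ordered by their mean, with a point for each library and a bar at each group mean. Adamts1 and Adamts5 are the highest in each library, and Adamts4, Adamts9 and Adamts15 lie lower in the 3 Nf2-knockout libraries than in the 3 controls.

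The question was how the family differs between the libraries labelled Nf2-knockout and their controls. Adamts4, Adamts7, Adamts9 and Adamts15 fell in the Nf2-knockout libraries and Adamts5 rose, so 4 of 10 genes were lower and 1 was higher, against 5.18% lower and 4.11% higher among the 18218 genes tested (9.29% in either direction). For 8 of the 10 the knockout and control values were fully separated, as they were for 32.9% of all tested genes. An unadjusted p under 0.05 was reached by 7 of the 10 and by 24.8% of tested genes, and a call with at least a 2-fold change by 3 of the 10 and by 4.1%. In limma on log2(FPKM + 1), 5 of the 9 members above the FPKM filter passed, against 11.9% of the genes in that fit. Adamts4, Adamts5, Adamts9 and Adamts15 kept their call without any 1 library, as did 2.73% of all genes in the fit. Over the 10 genes the median was −0.52 on the log2 scale, beside −0.01 over all genes. Fold changes are log2 of knockout over control from edgeR's quasi-likelihood test, with p-values adjusted over all tested genes.

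Among the aggrecanases, Adamts15 and Adamts4 showed the largest falls of the 10 genes. Adamts15 stood at 97.4, 91.6 and 71.8 CPM in the controls and at 18.9, 25.7 and 26.6 CPM in the knockouts. The lowest control lay far above the highest knockout, and the log2 fold change was −1.87 (SE 0.176, adjusted p = 0.0035), a level 0.273 times that of control. Adamts4 stood at 34.3, 47.1 and 40.7 CPM in the controls and at 10.7, 14.5 and 9.36 CPM in the knockouts. Its groups did not overlap either, with a log2 fold change of −1.82 (SE 0.199, adjusted p = 0.00456). Adamts4 is the inducible aggrecanase of cartilage, and Adamts15 is a further proteoglycan-cleaving member.

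Adamts9, a widely expressed protease of versican and aggrecan, stood at 65.7, 82.4 and 72.2 CPM in the controls and at 30.2, 41.2 and 32.9 CPM in the knockouts. Each knockout was below each control, and the gene fell by 1.08 on the log2 scale (SE 0.147, adjusted p = 0.00834). In knockout replicate 2 Adamts4 and Adamts9 were both at the highest of their 3 knockout values, whereas Adamts15 was highest in replicate 3.

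Adamts5, the main aggrecanase of mouse cartilage, moved the other way. It stood at 258, 248.7 and 244 CPM in the controls and at 427, 439 and 390.4 CPM in the knockouts, with narrow ranges in both groups. The rise was 1.67-fold (log2 fold change 0.74, SE 0.0817, adjusted p = 0.00464). Adamts1, which lies 53.1 kb from Adamts5 on chromosome 16 and the same strand, did not pass. Its values were 431.8, 427 and 455.8 CPM in the controls and 466.9, 496.1 and 535 CPM in the knockouts, which are close but do not overlap (0.19, 95% interval −0.01 to 0.39, adjusted p = 0.228).

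**Figure D2:**
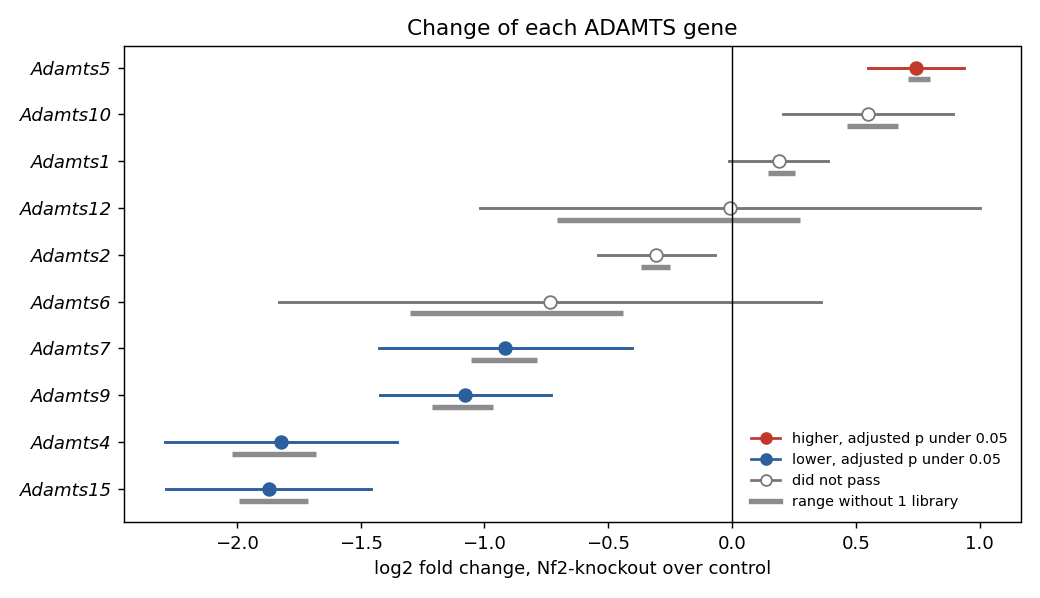
Log2 fold change of each ADAMTS gene, Nf2-knockout over control, with its 95% interval as a thin line and the range over the 6 fits without 1 library as a grey bar. Filled points passed at an adjusted p under 0.05, and the intervals of Adamts4 and Adamts15 lie wholly below −1 while that of Adamts12 spans −1.02 to 1.00.

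The procollagen N-proteinase gene Adamts2 was lower by a small amount that did not pass the test. It stood at 91.9, 107.7 and 103.1 CPM in the controls and at 77.5, 89.1 and 78.4 CPM in the knockouts, again without overlap (log2 fold change −0.31, 95% interval −0.54 to −0.07, adjusted p = 0.112).

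Of the COMP-cleaving pair, Adamts7 passed and Adamts12 did not, and the difference between them was not tested. Adamts7 stood at 5.73, 6.92 and 8.09 CPM in the controls and at 3.27, 3.34 and 4.37 CPM in the knockouts, and fell by 0.92 on the log2 scale (SE 0.217, adjusted p = 0.0443). That call was lost in 11 of 14 alternatives, among them each fit without 1 library (adjusted p from 0.0571 to 0.142), the fit without a filter, the fit with the replicate number as a block (adjusted p = 0.0686), and limma on log2(FPKM + 1), where the log2 fold change was −0.34 (adjusted p = 0.0843). Adamts12 varied within the knockouts, at 8.52, 9.04 and 25.4 CPM, around controls at 15, 11.3 and 17 CPM. Knockout replicate 3 was the highest of the 6 libraries and replicates 1 and 2 the lowest, and the log2 fold change was −0.0082 (SE 0.429, adjusted p = 0.994). Without knockout replicate 3 it was −0.71 (adjusted p = 0.138).

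Of the microfibril-linked pair, neither passed. Adamts10 stood at 23.8, 22.6 and 29.4 CPM in the controls and at 42.2, 33 and 35.8 CPM in the knockouts, each knockout above each control (log2 fold change 0.55, 95% interval 0.21 to 0.89, adjusted p = 0.0628). It passed with DESeq2 (adjusted p = 0.0123), in limma on log2(FPKM + 1) (adjusted p = 0.0425) and when control replicate 3 was left out (adjusted p = 0.0485). Adamts6 had 92, 61 and 96 counts in the controls and 26, 91 and 45 in the knockouts, and the groups overlapped (−0.74, 95% interval −1.83 to 0.36, adjusted p = 0.387).

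The transcript pool of the family was not smaller in the knockouts but was made up differently. Summed over the 10 genes it was 123.4, 125.4 and 126.3 FPKM in the controls and 137.5, 146.1 and 150.3 FPKM in the knockouts. The exact two-sided permutation test gave p = 0.1, the smallest value that 3 against 3 libraries allow, and the ratio of the means was 1.16 in FPKM and 1.08 in CPM per kilobase. Adamts5 made up 16.1 ± 0.741% of the summed FPKM in the controls and 25.1 ± 2.11% in the knockouts. Adamts4 made up 5.87 ± 0.882% and 1.54 ± 0.349%, and Adamts15 5.83 ± 0.99% and 1.47 ± 0.212%. Adamts1 held the largest share in each library, at 57.4 ± 1.45% and 60.6 ± 2.24%.

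Between the 2 main aggrecanase genes alone, Adamts4 was 22.9%, 29.8% and 27.2% of their summed FPKM in the controls and 5.3%, 6.88% and 5.09% in the knockouts. This share uses values within a library, so it does not depend on scaling between libraries, and the groups lay far apart (exact two-sided permutation p = 0.1, again the smallest possible). The summed FPKM of Adamts4, Adamts5, Adamts9 and Adamts15 was 39 ± 2.04 in the controls and 42.7 ± 2.52 in the knockouts. Those sums overlapped between the groups (exact two-sided permutation p = 0.2). This depended on the scaling: with FPKM rescaled to a common sum per library they did not overlap (exact permutation p = 0.1), and in CPM per kilobase they did (exact permutation p = 0.7).

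**Figure D3:**
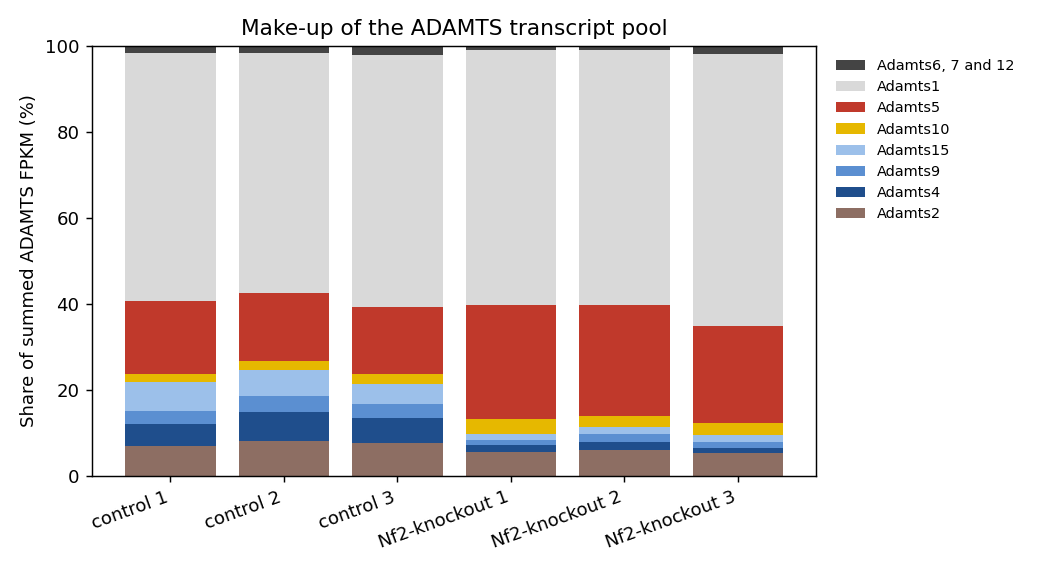
Share of each ADAMTS gene in the summed FPKM of the 10 genes, as a stacked bar for each library that starts at 0 and ends at 100%. Adamts5 takes 25.1% on average in the Nf2-knockout libraries and 16.1% in the controls, while Adamts4, Adamts9 and Adamts15 take less.

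Of the 9 other ADAMTS proteases, 3 could be tested and 0 were called by edgeR or DESeq2, though 1 had an unadjusted p below 0.05 in edgeR. Adamts14, a second procollagen N-proteinase, stood at 11.6 ± 1.41 CPM in the controls and 8.39 ± 0.559 CPM in the knockouts (log2 fold change −0.46, adjusted p = 0.111). Adamts3, a further member of that group, had 62, 30 and 58 counts in the controls and 11, 49 and 26 in the knockouts. Adamts17 had 54, 72 and 53 counts in the controls and 0, 29 and 19 in the knockouts (adjusted p = 0.265). Adamts13, Adamts16 and Adamts19 had no count in any library, and Adamts8, Adamts18 and Adamts20 had at most 8 counts in a library.

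ADAMTS-like proteins have the ancillary domains of the family without the protease, and several bind fibrillin. Of 6 tested genes in the list of these proteins and papilin, 3 rose and 0 fell, with a median log2 fold change of 0.43. Over all tested genes, 4.11% were higher and 5.18% lower. Adamtsl4 rose from 38.8, 40.3 and 40.7 CPM to 80.5, 72 and 82.8 CPM (0.97, SE 0.0907, adjusted p = 0.00337). Adamtsl3 rose by 0.87 and Adamtsl5 by 0.45, but Adamtsl3 kept its call in 1 of the 6 fits without 1 library and Adamtsl5 in 0.

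Among 22 tested substrates, 4 rose and 1 fell, with a median of 0.01, where 9.29% of all tested genes were called. Thbs1, a matricellular protein cut by ADAMTS1, rose by 1.49 on the log2 scale, with 884 ± 37.5 CPM in the controls and 2481 ± 80.3 CPM in the knockouts (adjusted p = 0.00304). The latent TGF-β binding protein gene Ltbp1 (0.76) and the basement membrane gene Nid1 (0.48, held in 1 of 6 fits without 1 library) rose too, as did the cartilage collagen gene Col2a1 (1.33, adjusted p = 0.0446, held in 1 of 6 such fits). Fbn2, which encodes fibrillin-2, fell from 54.2 ± 3.76 to 21.4 ± 5.15 CPM (−1.34, adjusted p = 0.00853). Acan, the aggrecan gene, stood at 11.5, 15.5 and 11 CPM in the controls and at 8.44, 12.6 and 3.55 CPM in the knockouts and did not pass (−0.63, adjusted p = 0.413). Fn1, Col1a1 and Bgn, the substrates with the highest mean FPKM over the 6 libraries, did not pass, with adjusted p = 0.863, 0.988 and 0.167.

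Of 16 genes for inhibitors, cofactors, activators and clearance receptors, 3 rose and 1 fell (9.29% of all tested genes were called), with a median of −0.18. Timp3 rose by 0.86 on the log2 scale, with 858 ± 131 CPM in the controls and 1556 ± 252 CPM in the knockouts (adjusted p = 0.0205, held in 4 of 6 fits without 1 library). Reck, a membrane-anchored metalloproteinase inhibitor, rose from 74.8 ± 7.57 to 141 ± 11.8 CPM (0.92, adjusted p = 0.00569). The convertase gene Pcsk6 rose from 2.89 ± 0.458 to 6.13 ± 0.707 CPM (1.09, adjusted p = 0.0229, held in 0 of 6). Fbln1, which encodes the ADAMTS1 cofactor fibulin-1, fell by 1.39 (adjusted p = 0.0269, held in 3 of 6). The clearance receptor gene Lrp1 (1288 ± 120 and 1075 ± 112 CPM, adjusted p = 0.212), Furin (adjusted p = 0.581), Timp1 (adjusted p = 0.544) and Timp2 (adjusted p = 0.569) did not pass.

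Of 15 tested regulators, 1 rose and 4 fell (9.29% of all tested genes were called), with a median of −0.34. The falls were those of cytokine receptors and of RUNX1. Il1r1, the receptor of interleukin-1, a classic inducer of aggrecanases, fell by 1.52 on the log2 scale, with 67.3, 65.6 and 53.1 CPM in the controls and 15, 27.3 and 22.3 CPM in the knockouts (adjusted p = 0.0101). Osmr, the oncostatin M receptor gene, fell from 298 ± 13 to 150.1 ± 27.8 CPM (−0.99, adjusted p = 0.00858). Runx1 fell by 1.38 (held in 3 of 6 fits without 1 library) and Tnfrsf1a by 0.34 (held in 0 of 6). Epas1, which encodes the hypoxia factor HIF-2α, rose by 0.61 (held in 1 of 6). Among the cytokine genes of the list, Il1b and Tnf had no count in any library, Il1a had at most 18 counts and Osm at most 12. Il6 had 291, 144 and 223 counts in the controls and 86, 139 and 130 in the knockouts. It did not pass in edgeR (log2 fold change −0.99, adjusted p = 0.0838) but did in DESeq2 (adjusted p = 0.0399).

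**Figure D4:**
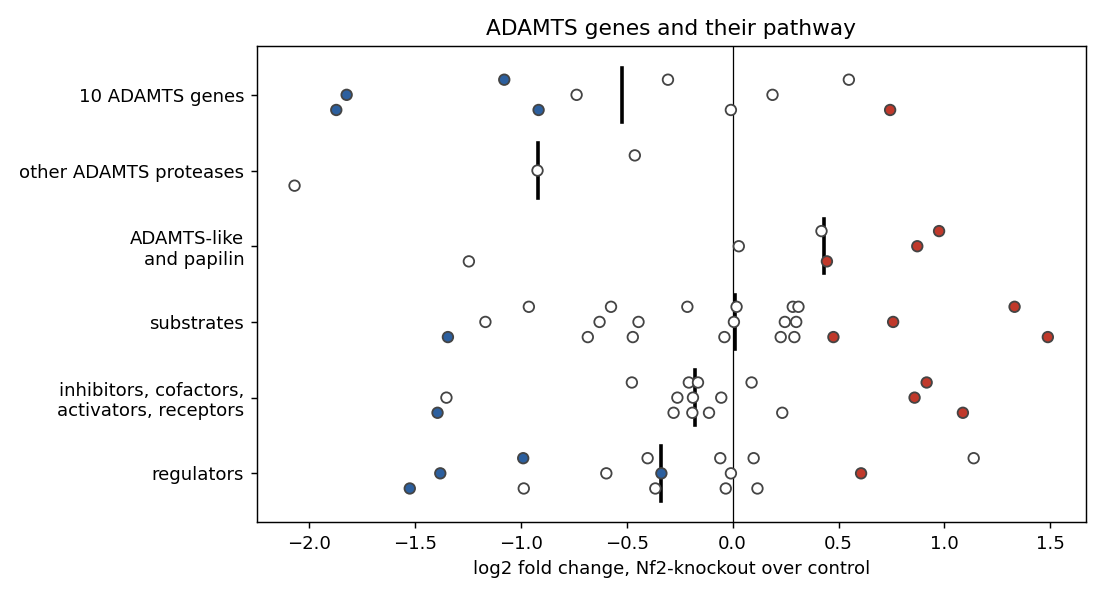
Log2 fold change, Nf2-knockout over control, of each tested gene in the 10 ADAMTS genes and 5 lists of relatives and partners, with a vertical bar at each list's median. Red points passed as higher, blue as lower and white points did not pass, and the medians run from −0.92 for the 3 other ADAMTS proteases to 0.43 for the ADAMTS-like list.

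Some markers of other cell types passed too, where 9.29% of all tested genes did. Of 7 tested osteoblast markers and 2 tested skeletal muscle markers, 0 passed. Of 13 tested macrophage markers (15 listed), 6 fell and 0 rose, with a median log2 fold change of −2.22. There were 10 falls with DESeq2, 2 with the replicate block and 0 to 3 in the fits without 1 library. The summed level of the list was 156.4 to 426.1 CPM in the controls and 43.6 to 106.6 CPM in the knockouts. None of the 15 was at 0 in all 6 libraries, though Aif1 had a count in 1 control alone, and Lyz2 was the highest (116 ± 78.3 and 29.9 ± 16.5 CPM). Of 7 tested fibroblast markers 2 fell, Pdgfra (−1.42, held in 6 of 6 fits without 1 library) and Lum (−1.78, held in 2 of 6), while Col1a1, Col1a2, Col3a1, Dcn and Dpt did not pass. Their summed level, with Pi16, was 11730 to 15090 CPM in the controls and 7933 to 10200 CPM in the knockouts. Of 8 tested pericyte and smooth muscle markers 3 rose, Acta2 (1.35, held in 3 of 6), Rgs5 (1.96, held in 6 of 6) and Cspg4 (1.08, held in 6 of 6). Of the other 5, which did not pass, Myh11 (−0.33) and Des (−0.39) had values below 0. Of 5 tested endothelial markers Kdr rose (1.36, held in 2 of 6). Tek (0.68), Cldn5 (0.14), Pecam1 (−0.15) and Emcn (−0.63) did not pass, with at most 163 counts in a library. Of 4 tested osteoclast markers Atp6v0d2 fell (−1.65, held in 6 of 6), from 16 ± 2.59 to 5.1 ± 1.44 CPM. The more abundant Ctsk (0.17, 1066 ± 192 and 1201 ± 244 CPM) and Acp5 (0.39, 64.8 ± 5.5 and 84.6 ± 22.8 CPM) did not pass. Oscar (−0.45) did not pass either, and Calcr and Dcstamp were at 0 in all 6 libraries. In these bulk samples fewer cells of a type and less RNA per cell cannot be told apart, and the part of these cells in the ADAMTS values was not tested.

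The genes whose profile over the 6 libraries was most like that of Adamts4 were Dio2, Angpt4 and Tnfrsf21, with root mean square differences of 0.0783, 0.102 and 0.109 in centred log2 CPM among 10396 candidates. For Adamts5 they were Cdk6 (0.0572), Actn1 (0.0598) and Hsph1 (0.0645). Among the 10 genes, Adamts5 and Adamts10 were the closest pair (0.201), and Adamts4 and Adamts15 differed by 0.31.

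Some of the genes share transcribed sequence with a gene on the other strand, and without strand information in the counting their reads cannot be told apart. Exons of Tbc1d2b overlap 1.94% of the exonic bases of Adamts7, and those of A730049H05Rik 9.18% of Adamts9. Tbc1d2b, with 15006, 14501 and 13495 counts in the controls and 7578, 11631 and 14197 in the knockouts, did not pass (log2 fold change −0.49). Adamts7 had far fewer, at 340, 373 and 462 counts in the controls and 171, 211 and 292 in the knockouts. A730049H05Rik, with 227, 107 and 175 counts in the controls and 5, 29 and 2 in the knockouts, fell with Adamts9. Adamts9 itself had 3893 to 4441 counts in the controls. The part of shared reads in the counts of Adamts7 and Adamts9 was not tested. Promoters from RefSeq (GRCm38.p6, 250 bases before to 50 after the start) matched 4 of the 10 genes, Adamts1, Adamts2, Adamts9 and Adamts12. None of the 4 held the letters GGAATG (a TEAD motif, in 14.7% of 32817 promoters), TGANTCA (AP-1, 7.81%), TGTGGT (RUNX, 16.8%) or TGACGTCA (the cAMP response element, 1.79%) on either strand.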

How the data were processed

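The authors deposited 1 table with a count and an FPKM value per gene for each of 6 libraries, 3 Nf2-knockout and 3 control, grouped by their titles. Per the submitters' processing notes, cutadapt 1.9, HISAT2 2.0.4, StringTie 1.3.4d and edgeR were used, with no roles given. No build is named in the labels or the table header, but positions equal those of GENCODE M21 (GRCm38) for 94.2% of 55141 genes. The deposited counts are whole numbers in which 4 and 8 are more frequent than their neighbours (837 to 1066 genes at 4 and 175 to 205 at 5 in a library), so a count may stand for less than 1 sequenced fragment. The deposited FPKM were scaled by the authors for depth and length, with 0.0001 for a count of 0.

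All genes were fitted in edgeR 4.0.16 (R 4.3.3; filterByExpr, TMM factors, glmQLFit, glmQLFTest with group as the only term). Tests were two-sided, p-values were adjusted by the Benjamini-Hochberg method and calls were made under 0.05. SE was derived as |log2 fold change| divided by √F. Alternatives were DESeq2 1.42.0, its size factors in edgeR, no filter, a replicate block, leaving out each library, and limma 3.58.1 on log2(FPKM + 1) and log2(FPKM + 0.1) at a mean FPKM of at least 0.5 or unfiltered. Counts divided by 4 were added after seeing the data. The tests were tested on simulated counts. The members and lists were chosen with earlier results of these data known. Genes to be named were the 10 members, Nf2, and in each list up to 6 called genes and the 3 most abundant. Added to these were, for each cell type, the 3 top markers by level, and the 3 genes most like Adamts4 and Adamts5. Of the top markers, some in the macrophage, osteoblast and skeletal muscle lists are not named here. Other genes, such as Acan, Lrp1, Furin and the remaining cell type markers, were named after their values were seen. One gene near a member is not reported here.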

Additional observations from a re-analysis of the deposited data

How the results depend on the processing

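The directions of Adamts1, Adamts2, Adamts4, Adamts5, Adamts6, Adamts7, Adamts9, Adamts10 and Adamts15 held under each alternative run, and the calls of Adamts4, Adamts5, Adamts9 and Adamts15 held in 14 of 14. Of the 10 genes, 2 were higher with DESeq2 and with limma on log2(FPKM + 1) or log2(FPKM + 0.1), and 1 to 2 were higher and 3 lower without 1 library. The replicate numbers did not pair the libraries: deviations of same-numbered libraries correlated at −0.0895, 0.0296 and 0.0234, and not every library correlated best with its own number. With the replicate block 389 genes were higher and 534 lower (749 and 944 without it), 1 other family gene was higher, and 4 substrates, partners and regulators were higher. DESeq2 called 1276 higher genes, and 11 lower substrates, partners and regulators. Rises were 63.1% of calls in limma on log2(FPKM + 1) against 44.2% in edgeR, with 615 genes lower, 612 with a pseudocount of 0.1 and 399 without a filter. Without 1 library, 309 to 574 genes were higher and 320 to 706 lower, with the fewest without knockout replicate 1; 1 to 2 other family genes were higher and 0 lower; 3 to 6 substrates, partners and regulators were higher and 3 to 6 lower. The ratio of summed FPKM was then 1.13 to 1.19, and the Adamts4 share −22.8 to −19.3 percentage points from control.

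Values near 0 changed sign: Adamts12 was 0.0088 with DESeq2, 0.0094 with its size factors and −0.71 to 0.27 without 1 library. Fn1 was 0.058 in limma on log2(FPKM + 1), with or without a filter, 0.058 with a pseudocount of 0.1 and −0.075 to 0.045 without 1 library, and Rela 0.066, 0.066, 0.069 and −0.055 to 0.0035. Without 1 library Col1a1 lay between −0.11 and 0.16, Ibsp between −0.13 and 0.43, Tek between −0.45 and 1.37 and Cldn5 between −0.44 and 0.59. The cause was not tested.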

Other observations

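Of 39 tested genes within 100 kb of the 10 ADAMTS genes, the 10 themselves left out, 1 was higher and 4 were lower, where 9.29% of all tested genes were called. C1qtnf3, 84.6 kb from Adamts12, was the higher one (log2 fold change 1.77, adjusted p = 0.0315). The lower ones were Pcp4l1 (−1.93) and Sdhc (−0.48), which lie 54.2 kb and 99.8 kb from Adamts4, Zfp354c (−0.55), 3.51 kb from Adamts2, and A730049H05Rik, which overlaps Adamts9. These 5 genes were named after their values were seen. Adamts8 lies within 100 kb of Adamts15 on the other strand and had at most 8 counts in a library.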
